A study of Mus musculus with 16 samples.

Results

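The genes described here make up the receiving end of the retinoic acid pathway: the binding proteins Crabp1 and Crabp2, the receptors Rara, Rarb and Rarg, the degrading enzyme Cyp26b1 and the uptake receptor Stra6. They were taken by symbol, as every probe set that names 1 of these genes alone, which gave 8 probe sets for the 7 genes, among 34945 single-gene probe sets for 18193 genes. Rarg had 2 probe sets and every other gene had 1. The genes were chosen for their level without treatment in each genotype and for their change with MG132, so these differences are given as a description and were not tested.

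RNA came from mouse embryonic fibroblasts of 2 genotypes, wild-type (CHOP+/+) and CHOP-/-, which lacks the stress-induced transcription factor CHOP encoded by Ddit3. All cells were grown in DMEM with serum, and plates of each genotype were left untreated or exposed for 8 h to 1 µM MG132, an inhibitor of the proteasome, which gave 4 groups of 4 arrays. For the untreated plates the treatment field names no agent while the description names DMSO, the solvent, so whether the solvent is part of the MG132 comparisons was not settled by the labels. The series asks which genes need CHOP for their response to proteasome inhibition. The labels give a plate for each array and do not say whether plates came from separate embryos, so errors and p-values measure the spread between plates. The age of the embryos and the number of isolates behind each genotype were not stated in the labels.

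Retinoic acid is made inside cells from retinol, which enters through membrane receptors such as STRA6, by a first oxidation to retinal and a second to the acid. CRABP1 and CRABP2 are small cytosolic carriers: CRABP2 is known to hand retinoic acid to its nuclear receptors, while CRABP1 holds it in the cytosol. RARα, RARβ and RARγ pair with RXR partners on direct repeats of a short motif in DNA, and CYP26 enzymes oxidise and remove the ligand. Rarb is a textbook target of the receptors it belongs to, through an element just upstream of its start site.

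The windows around the annotated starts of Rarb, Crabp1 and Cyp26b1 are shown because Rarb is that textbook target and because Crabp1 and Cyp26b1 had the largest differences between the genotypes among the 7 genes. They are from RefSeq on GRCm38.p6, 250 bases before to 50 bases after the start, 5′ to 3′ on the strand of the gene. Rarb lies at chr14:16575427-16575726 on the minus strand, Crabp1 at chr9:54764498-54764797 on the plus strand and Cyp26b1 at chr6:84593761-84594060 on the minus strand. Capitals mark a retinoic acid response element in Rarb and a C/EBP-ATF composite element in Crabp1.
Rarb: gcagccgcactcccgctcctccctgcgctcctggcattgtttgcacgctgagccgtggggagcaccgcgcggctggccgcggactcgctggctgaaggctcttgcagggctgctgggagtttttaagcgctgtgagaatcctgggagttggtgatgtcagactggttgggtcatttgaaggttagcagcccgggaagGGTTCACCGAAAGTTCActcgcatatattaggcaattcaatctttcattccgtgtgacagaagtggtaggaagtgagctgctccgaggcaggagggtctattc
Crabp1: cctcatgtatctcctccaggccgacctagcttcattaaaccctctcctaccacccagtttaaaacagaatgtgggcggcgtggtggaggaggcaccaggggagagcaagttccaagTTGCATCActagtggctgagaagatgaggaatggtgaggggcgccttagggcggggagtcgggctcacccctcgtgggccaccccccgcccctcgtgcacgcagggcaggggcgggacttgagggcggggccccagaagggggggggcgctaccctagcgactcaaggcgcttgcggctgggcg
Cyp26b1: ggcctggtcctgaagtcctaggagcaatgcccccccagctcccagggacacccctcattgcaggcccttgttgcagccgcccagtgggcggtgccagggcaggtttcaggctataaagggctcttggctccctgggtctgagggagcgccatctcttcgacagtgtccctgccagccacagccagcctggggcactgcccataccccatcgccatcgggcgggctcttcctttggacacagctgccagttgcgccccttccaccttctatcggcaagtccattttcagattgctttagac

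Windows were found for 6 of the 7 genes, 13 windows in all. They were searched on both strands for 2 copies of the receptor motif in the same direction, with 1, 2 or 5 bases between them. A copy could read AGGTCA or AGTTCA or GGGTCA or GGTTCA. The Rarb window held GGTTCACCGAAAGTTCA, with 5 bases between the copies, at -53 to -37 from the start. Of 32851 windows of the same length across the genome, 32 (0.0974%) held a pair with that spacing. None of the other 12 windows of these genes held a pair with any of the 3 spacings. The letters TTGCATCA, a composite element for dimers of C/EBP and ATF proteins, which were searched for with the sequences already in view, stood at -134 to -127 in the Crabp1 window and in 0.895% of all windows. A match of letters is a description, and binding was not measured here.

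In the cells themselves, Ddit3 read 887, 1054, 998 and 1127 on the untreated wild-type arrays and 8181, 6891, 8087 and 7739 with MG132. In CHOP-/- cells it read 382, 352, 393 and 343 without and 429.8, 394, 418 and 342 with MG132, where the treated and untreated arrays overlapped. Whether its probes fall in the deleted stretch was not checked, so these values describe the signal of this probe set and not the deletion itself. Array medians lay between 90.1 and 113, and arrays of a group correlated at 0.985 to 0.992. No detection calls were given, so whether a probe set near or below the array median is above background is not known. Of 13 fibroblast markers, 11 or 12 lay above the array median on all 4 arrays of each group, among them Vim, Fn1 and Col1a2.

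The genotypes also differed in transcripts other than the targeted gene, and these values stand beside every comparison of CHOP-/- with wild-type cells. Xist, the transcript of the inactive X chromosome, averaged 297 in untreated wild-type and 10336 in untreated CHOP-/- cells, whereas the Y-linked Eif2s3y averaged 4714 and 11.1, so the cultures differed in sex-linked expression. The 8 epithelial markers, led by Krt19, summed to 6651 to 7647 per array in untreated wild-type and 4093 to 4743 in untreated CHOP-/- cells. Among them Epcam averaged 185 and 147, and Cdh1 52.2 and 38.2. The 7 neural markers with a probe set summed to 5363 to 6383 and 1895 to 2219, of which Sox2 averaged 1775 and 184 and Map2 2416 and 346. The 7 macrophage and leukocyte markers summed to 753.5 to 897 and 1472 to 1727, chiefly through Cd14. Csf1r averaged 230 and 200, Cd68 135 and 121.5, and Ptprc 20.5 and 23.2. The 7 endothelial markers summed to 202.4 to 317.6 and 109.3 to 288, with Pecam1 at 9.8 and 14.2. Fat cell markers summed to 1094 to 1152 and 370.2 to 516.8, with Pparg at 731 and 218. Skeletal muscle markers summed to 1237 to 1560 and 603.3 to 918.6. Cartilage and bone markers summed to 240.1 to 471.9 and 331 to 526.1. Fibroblast receptors and matrix genes differed as well, with Pdgfra at 2351 and 118, Thy1 at 228 and 2727 and Dcn at 38.5 and 1075. Without detection calls, a marker signal above 0 does not show that the gene was expressed. The part of these differences between the genotypes in the results was not tested. Loss of CHOP and the origin of the cultures cannot be told apart.

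**Figure D1:**
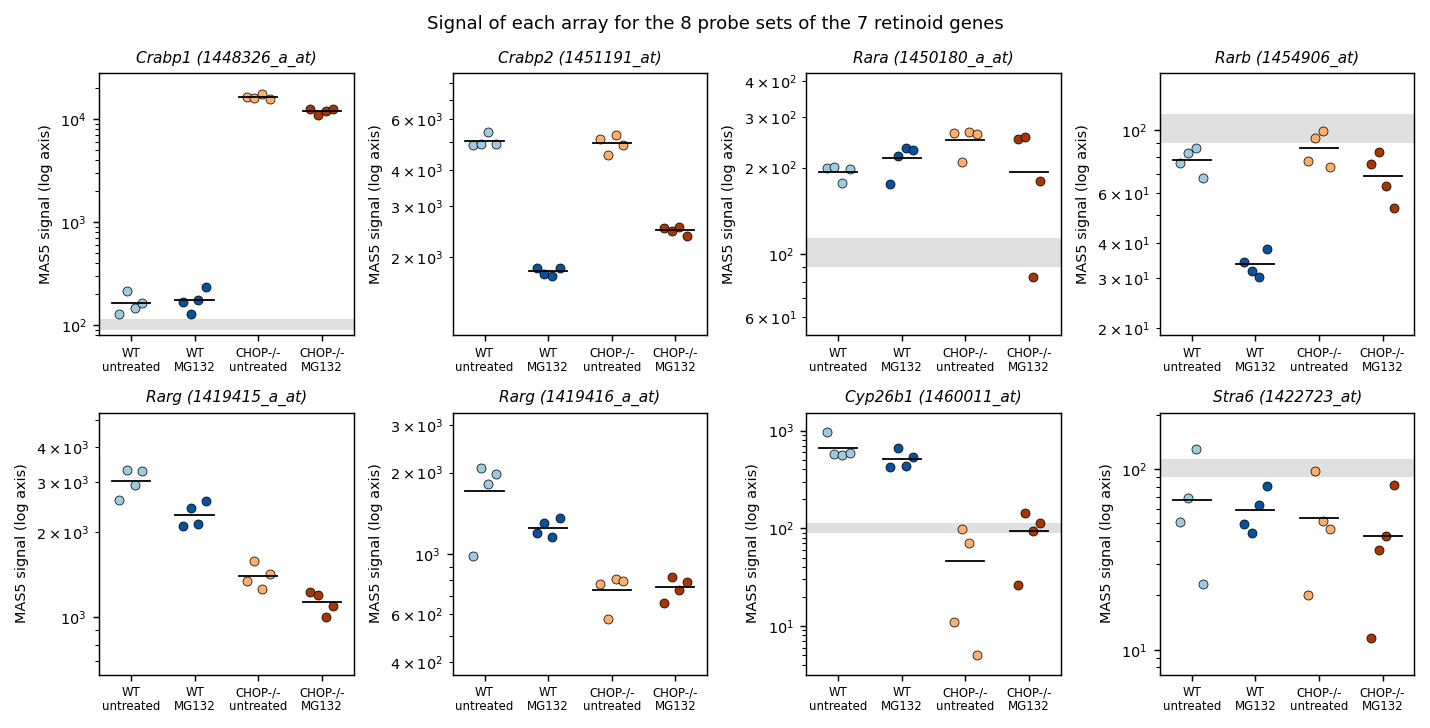
MAS5 signal on a log axis for each of the 16 arrays, 1 panel per probe set, with the group mean as a bar and the range of the array medians (90.1 to 113) in grey. Crabp1 stood near the grey band in wild-type and at 11098 or above in CHOP-/- cells, Cyp26b1 was above the band in wild-type cells alone on all 4 arrays, and Crabp2 was lower with MG132 in both genotypes.

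Crabp1, the carrier that holds retinoic acid in the cytosol, was low in wild-type and high in untreated CHOP-/- cells, where it stood between percentiles 98.1 and 98.3 of all probe sets of an array. Its signal read 129, 214, 146 and 165 on the untreated wild-type arrays and 16333, 16221, 17518 and 15747 on the untreated CHOP-/- arrays, with means of 164 ± 36.9 and 16455 ± 753 (SD, n = 4 each). Every CHOP-/- array lay above every wild-type array. The ratio of the mean signals was 100.5, and the difference of mean log2(signal + 16), the scale of all log2 values here, was 6.54 (SE 0.15). The size depends on the constant added to the dim wild-type signals and was 6.19 with 64 in place of 16.

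MG132 left the order of the genotypes as it was. In wild-type cells Crabp1 read 168, 127, 176 and 232 with MG132, overlapping the untreated arrays, with a log2 difference of 0.09 (SE 0.22), which ranged from -0.04 to 0.29 over the settings. In CHOP-/- cells it read 12505, 11098, 12166 and 12629.8, a mean of 12100 ± 696 (SD, n = 4). All 4 treated CHOP-/- arrays lay below the 4 untreated ones, by a log2 difference of -0.44 (SE 0.05), or -0.30 with the arrays centred on the median of the tested genes. With MG132 the CHOP-/- cells were higher than wild-type by 6.01 (SE 0.17), a ratio of mean signals of 68.8.

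Crabp2, the carrier that delivers retinoic acid to its receptors, did not share that difference between genotypes. It read 4869, 4926, 5408 and 4930.3 in untreated wild-type cells and 5115, 4499, 5291 and 4895 in untreated CHOP-/- cells, and the groups overlapped with a log2 difference of -0.03 (SE 0.06). Treated wild-type cells read 1836, 1748, 1717 and 1838, and treated CHOP-/- cells 2524, 2467, 2546 and 2361. In both genotypes every treated array lay below every untreated one.

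The mean signal of Crabp2 was 2.82-fold lower with MG132 in wild-type cells, at 1785 ± 61.6 against 5033 ± 251 (SD, n = 4 each). In CHOP-/- cells it was 2.00-fold lower, at 2475 ± 82.7 against 4950 ± 342 (SD, n = 4 each). The log2 differences were -1.49 (SE 0.04) and -0.99 (SE 0.06), or -1.28 and -0.85 after median centring. All 4 treated CHOP-/- arrays lay above the 4 treated wild-type arrays, by 0.47 (SE 0.03), and both responses differed by 0.49 (SE 0.07).

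Stra6, the membrane receptor through which retinol bound to its plasma carrier enters cells, was dim on nearly all arrays. It read 50.9, 68.9, 128 and 23.2 in untreated wild-type cells and 49.8, 44.4, 63.4 and 81.0 with MG132. CHOP-/- cells read 20.1, 97.7, 51.3 and 46.6 without and 11.7, 35.7, 42.8 and 81.1 with MG132. It lay above the array median on 1 of 16 arrays, and the groups overlapped in each of the 4 comparisons, with log2 differences between -0.48 (SE 0.40) and -0.02 (SE 0.42).

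Of the receptors, Rarg, the form best known from skin and cartilage, was lower in CHOP-/- cells by both of its probe sets. The brighter probe set read 2602, 3310.2, 2940.4 and 3288 in untreated wild-type and 1346, 1579, 1261 and 1426 in untreated CHOP-/- cells, means of 3035 ± 335 and 1403 ± 136 (SD, n = 4 each). The wild-type mean was 2.16-fold higher, a log2 difference of -1.10 (SE 0.11) for CHOP-/- minus wild-type, with no overlap. With MG132 it read 2096, 2434, 2138 and 2569 in wild-type and 1224, 1197, 1005 and 1095 in CHOP-/- cells. Each treated group lay wholly below its untreated group, by -0.39 (SE 0.11) in wild-type and -0.31 (SE 0.09) in CHOP-/- cells.

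Median centring of these Rarg differences left -0.19 in wild-type and -0.16 in CHOP-/- cells. The second probe set read 987, 2082, 1821 and 1981 in untreated wild-type cells and 1198, 1299, 1159 and 1355 with MG132, and these groups overlapped, with a log2 difference of -0.40 (SE 0.25) like that of the brighter probe set. CHOP-/- cells read 776, 576, 814 and 794 without and 661, 824, 739 and 792 with MG132, which overlapped too, with a log2 difference of 0.03 (SE 0.13). Between the untreated genotypes it differed by -1.15 (SE 0.27) and between the treated ones by -0.72 (SE 0.09), with no overlap in either case.

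Rara, the most widely expressed of the 3 receptors, differed little. It read 199, 201, 176 and 198 in untreated wild-type and 264, 209.6, 267 and 261 in untreated CHOP-/- cells, and all 4 CHOP-/- arrays lay above the wild-type arrays, by 0.34 (SE 0.09). With MG132 it read 175, 220.1, 235 and 231 in wild-type and 252, 255, 83.1 and 179 in CHOP-/- cells. Both MG132 comparisons overlapped, at 0.13 (SE 0.10) in wild-type and -0.45 (SE 0.35) in CHOP-/- cells, or 0.34 and -0.31 with median centring. Replicate 3 of the treated CHOP-/- group was the lowest of its group, though it did not pass the outlier check given below. Without it the CHOP-/- difference was -0.13, and over the settings this difference ranged from -0.62 to -0.13. Between the treated genotypes the difference was -0.25 (SE 0.35), and 0.075 without that array.

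Rarb, the receptor whose own promoter holds the element printed above, was dim, below the array median on all 16 arrays. It read 76.4, 82.9, 86.3 and 67.8 in untreated wild-type cells and 34.3, 31.8, 30.3 and 37.9 with MG132. It read 77.6, 93.7, 98.8 and 73.8 in untreated CHOP-/- cells and 75.7, 83.4, 63.6 and 53.0 with MG132. In wild-type cells all treated arrays were below all untreated ones, and in CHOP-/- cells the groups overlapped.

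The mean signal of Rarb in wild-type cells was 2.33-fold lower with MG132, a log2 difference of -0.93 (SE 0.08). This difference became -1.20 with 1 and -0.54 with 64 added to the signals, and -0.72 with median centring. The CHOP-/- difference was -0.27 (SE 0.14). The untreated genotypes overlapped at 0.11 (SE 0.11), whereas the treated CHOP-/- arrays all lay above the treated wild-type arrays, by 0.77 (SE 0.13), or by 1.00 with 1 and 0.44 with 64 added.

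Cyp26b1, an enzyme that oxidises retinoic acid to products that are cleared, was the counterpart of Crabp1, higher in wild-type cells. It read 955, 569, 564 and 584 in untreated wild-type and 10.9, 99.2, 70.5 and 5.1 in untreated CHOP-/- cells, means of 668 ± 192 and 46.4 ± 45.9 (SD, n = 4 each), with no overlap. The log2 difference was -3.77 (SE 0.63), and it ranged from -4.60 to -2.79 over the settings tried, the last with 64 added to the signals.

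With MG132 Cyp26b1 read 428, 665, 434 and 539 in wild-type and 26.3, 142, 93.0 and 114 in CHOP-/- cells. Both MG132 comparisons overlapped, at -0.35 (SE 0.23) in wild-type and 1.01 (SE 0.74) in CHOP-/- cells, with ranges over the settings of -0.47 to -0.14 and 0.55 to 1.58. The treated genotypes did not overlap, and the wild-type mean was 5.51-fold higher. It lay above the array median on all 8 wild-type arrays, on 0 of 4 untreated and on 2 of 4 treated CHOP-/- arrays, so that it passed the filter on dim probe sets through the wild-type groups.

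Over the 8 probe sets, 5 did not overlap between the untreated genotypes, 2 higher and 3 lower in CHOP-/- cells, where 29.8% of all single-gene probe sets did not overlap, 15.4% higher and 14.4% lower. With MG132, 3 lay wholly lower in wild-type cells (Crabp2, Rarb and the brighter Rarg probe set) and 0 wholly higher, against 34.1% of all without overlap, 18.1% lower and 16% higher. In CHOP-/- cells 3 lay wholly lower (Crabp1, Crabp2 and the brighter Rarg probe set), against 34.9% of all without overlap, 19.6% lower and 15.2% higher. Between the treated genotypes 6 did not overlap, against 33.5% of all, 16.3% higher and 17.1% lower. The genes were chosen on these comparisons, so nothing is read from these counts. The MG132 comparisons share their untreated arrays with the comparison of the genotypes. The 5 genes that passed the filter were Crabp1, Crabp2, Rara, Rarg and Cyp26b1, while Rarb and Stra6 did not.

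**Figure D2:**
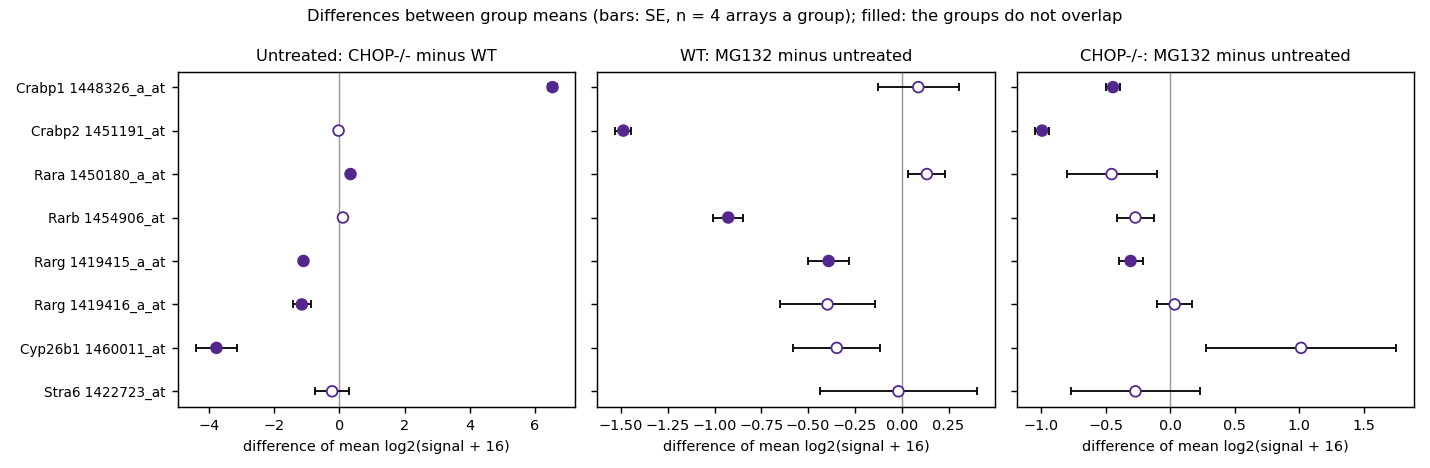
Differences of mean log2(signal + 16) for the 8 probe sets in 3 comparisons (x axes, of different range), with bars for the SE over 4 arrays a group and filled points where the groups do not overlap. Crabp1 at 6.54 and Cyp26b1 at -3.77 stand farthest from 0 between the untreated genotypes, and Crabp2 at -1.49 and -0.99 is the lowest point in wild-type and in CHOP-/- cells with MG132.

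The tested genes whose log2 signals followed each member most closely over the 16 arrays are given as a description. The arrays fall into 4 groups and share their cultures, so a high r mostly reflects a like order of the groups. For Crabp1 these were Smpdl3b (r = 0.998), Igfbp7 (0.995) and Xist (0.995), all higher in CHOP-/- cells. For Crabp2 they were Tk1 (0.995), Pop7 (0.992) and Spc24 (0.989). Tk1, the thymidine kinase of dividing cells, had a mean signal of 8793 without and 2170 with MG132 for wild-type plates, and of 8429 and 3510 for CHOP-/- plates. For Rarg they were Mmp14 (0.985), Il17d (0.985) and Rbfa (0.981), and for Cyp26b1 Lims2 (0.964), Kcnk6 (0.956) and Spats2l (0.944). Rara was followed less closely, by Trim13 (0.816), Fn3krp (0.761) and Rwdd3 (0.757).

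The rest of the pathway was read from 3 lists of 73 genes in all, of which 66 had a single-gene probe set and 46 were tested. Of these 46, 14 were higher and 17 lower in untreated CHOP-/- than wild-type cells by limma at an adjusted p under 0.05, with a median of -0.06. Over all 11443 tested genes 55.4% passed, 28.6% higher and 26.9% lower, with a median of 0.01. With MG132, 12 rose and 19 fell in wild-type cells (median -0.15), beside 64% of all genes passing, 27.2% up and 36.9% down (median -0.07). The CHOP-/- response had 9 rising and 22 falling (median -0.19), beside 62.4% of all genes passing, 25.7% up and 36.7% down (median -0.07). Median centring shifted all tested genes by a median of 0.20 (wild-type response) and 0.14 (CHOP-/- response), and the list counts then were 15 higher and 14 lower in wild-type and 17 and 18 in CHOP-/- cells. Over all genes the split with median centring was 4580 higher and 2855 lower in wild-type and 3985 and 3172 in CHOP-/- cells, against 3108 and 4221, and 2941 and 4204, as deposited. Markers moved with MG132 as well. Summed per array, the fibroblast markers came to 130600 to 147900 in untreated and 126800 to 138000 in treated wild-type cells, and to 129700 to 143700 and 108000 to 112800 in CHOP-/- cells. The epithelial sums were 6651 to 7647 and 8597 to 9274 in wild-type and 4093 to 4743 and 3868 to 4085 in CHOP-/- cells, with mean Krt14 signals of 10.1 and 471, and of 10.4 and 63.6. The neural sums were 5363 to 6383 and 5078 to 5680, and 1895 to 2219 and 2462 to 2976, with Tubb3 at 212 and 690.1, and at 100.4 and 1096. The macrophage and leukocyte sums were 753.5 to 897 and 841.2 to 1101, and 1472 to 1727 and 2213 to 2434. Cd14 averaged 310.5 and 264, and 1054 and 1736, and Cd68 135 and 217, and 121.5 and 120.7. Csf1r averaged 230 and 321, and 200 and 293.5, while Ptprc was at 29.7 or lower on average in every group. For endothelial markers the sums were 202.4 to 317.6 and 241.5 to 337.7, and 109.3 to 288 and 290.7 to 446.6. Cartilage and bone markers summed to 240.1 to 471.9 and 674.5 to 901.5, and to 331 to 526.1 and 551.2 to 811.2. Skeletal muscle markers summed to 1237 to 1560 and 654.5 to 936.1, and to 603.3 to 918.6 and 659.7 to 937.8. Fat cell markers summed to 1094 to 1152 and 1191 to 1302, and to 370.2 to 516.8 and 385.6 to 483.6. The part of the markers in the MG132 results was not tested.

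**Figure D3:**
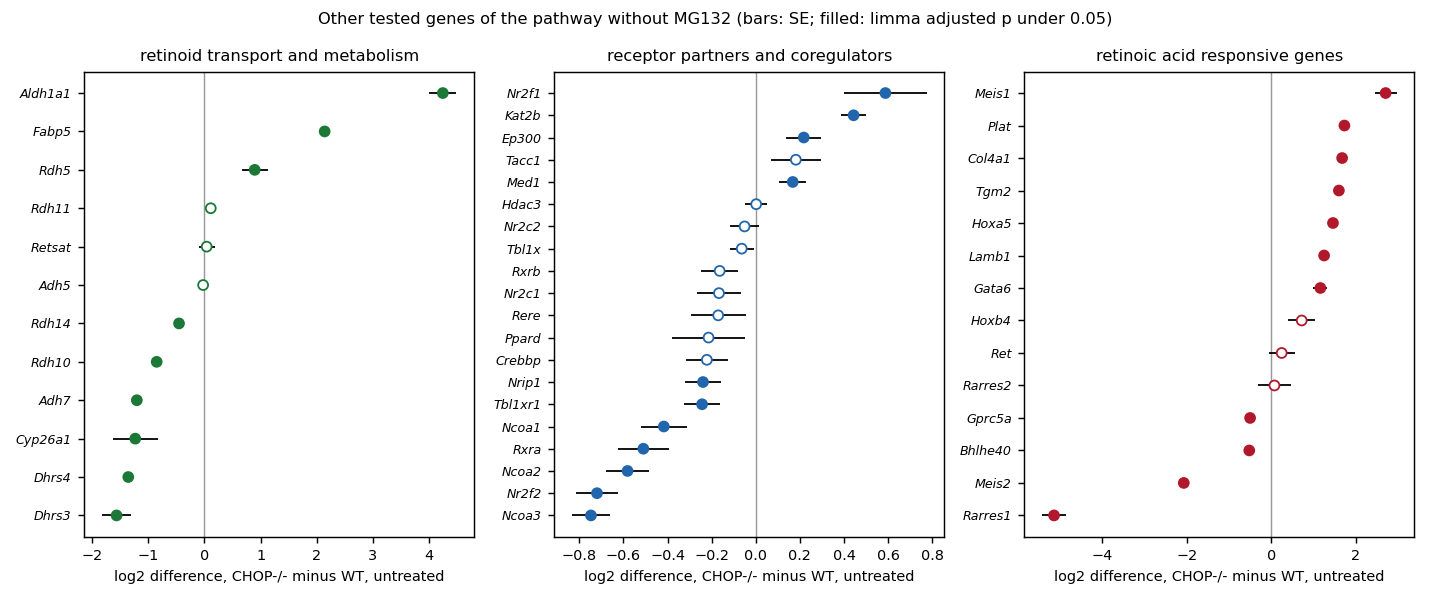
Log2 difference of CHOP-/- minus wild-type without MG132 for the 46 tested genes of the 3 lists, 1 panel per list, with bars for the limma SE and filled points where the adjusted p was under 0.05. Aldh1a1 at 4.24 and Rarres1 at -5.15 lie at the ends, and the coregulators lie between -0.75 and 0.59. Aldh1a1 and Rarres1 each passed the filter on dim probe sets only through the genotype where the gene was higher.

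Genes of retinoid transport and synthesis differed between the genotypes in both directions: 3 of 12 tested were higher and 6 lower in untreated CHOP-/- cells, with a median of -0.24. The shares over all tested genes were 28.6% higher and 26.9% lower. Aldh1a1, an enzyme that oxidises retinal to retinoic acid, read 2.06, 3.94, 7.96 and 3.29 in untreated wild-type and 380.5, 333, 379.7 and 375 in untreated CHOP-/- cells. It differed by 4.24 (SE 0.24, limma adjusted p = 7.2e-12), or by 6.23 with 1 and 2.66 with 64 added to the signals in place of 16. Its wild-type signals were all below the array median. It thus passed the filter on dim probe sets through the CHOP-/- groups alone, where it was higher. Fabp5, a carrier known to bring retinoic acid to PPARδ, averaged 7559 ± 198 and 33399 ± 1584 (SD, n = 4 each) and was higher by 2.14 (SE 0.04). Rdh5, a retinol dehydrogenase named here after its values were seen, was the third gene that was higher, by 0.90 (SE 0.23). Rdh11, Adh5 and Retsat did not pass, with differences of 0.11, -0.02 and 0.04. Rdh10, which makes retinal from retinol, differed by -0.85 (SE 0.07), Adh7, an alcohol dehydrogenase that accepts retinol, by -1.20 (SE 0.06), and Dhrs3, which turns retinal back to retinol, by -1.56 (SE 0.26). Dhrs4, a further retinal reductase, differed by -1.36 (SE 0.07), and Rdh14 by -0.45 (SE 0.09), a call that was lost when all probe sets of the gene were averaged. Cyp26a1, named here after its values were seen, was lower too, by a difference of -1.23 (SE 0.40). It was dim, with mean signals of 85.0 in wild-type and 32.8 in CHOP-/- cells, both below the range of the array medians.

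With MG132 5 genes of that list rose and 5 fell in wild-type cells, while 2 rose and 7 fell in CHOP-/- cells (4 and 7 with median centring). The medians were 0.02 and -0.37, or -0.02 and -0.41 with quantile normalization and 0.22 and -0.23 with median centring. Over all tested genes 27.2% rose and 36.9% fell in wild-type cells, and 25.7% rose and 36.7% fell in CHOP-/- cells. Rdh10 read 2476, 2329.7, 2314 and 2795 in untreated wild-type cells and 4209, 4376, 3735 and 4017 with MG132. CHOP-/- cells read 1329, 1389.8, 1272 and 1475 without and 989, 1111, 992 and 1157 with MG132. It rose in wild-type cells by 0.72 (SE 0.07) and fell in CHOP-/- cells by 0.36 on the log2 scale, and the responses differed by -1.08 (SE 0.10, limma adjusted p = 2.23e-07). The fall in CHOP-/- cells lost its call when probe sets with a suffixed name, which can match several transcripts, were left out.

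Adh7 rose in both genotypes, by 0.62 (SE 0.06) in wild-type and 1.21 (SE 0.06) in CHOP-/- cells. Dhrs3 fell in both, with changes of -1.23 in wild-type and -0.97 in CHOP-/- cells, the latter -0.59 with 64 added. Aldh1a1 fell by 1.22 in CHOP-/- cells, to 148.9 ± 18.2 (SD, n = 4), and had signals near the lowest on the array in both wild-type groups. Retsat, which reduces retinol at a double bond, fell in CHOP-/- cells by 1.30, and its change of -0.51 in wild-type cells lost its call with median centring. Fabp5 fell in both genotypes, with -0.64 in wild-type and -0.38 in CHOP-/- cells.

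Of the receptor partners and coregulators in untreated CHOP-/- cells 4 of 20 tested were higher and 7 lower, with a median of -0.17, or 5 and 5 with median centring. Among all tested genes 28.6% were higher and 26.9% lower. Rxra, the RXR partner of the receptors, averaged 1048 ± 140 in wild-type and 734 ± 122 in CHOP-/- cells (SD, n = 4 each), a difference of -0.51 (SE 0.12), and this and its other calls were lost when all probe sets of the gene were averaged. Rxrb passed the threshold in none of the 4 tested comparisons, with differences between -0.16 and 0.16, but it passed between the untreated genotypes without untreated wild-type replicate 1 (-0.23) and for MG132 in CHOP-/- cells with median centring (0.28). The coactivators Ncoa3 and Ncoa2 differed by -0.75 (SE 0.09) and -0.58 (SE 0.10), and Nr2f2, the orphan receptor COUP-TFII, by -0.72 (SE 0.10). Kat2b, a histone acetyltransferase, was higher by 0.44 (SE 0.06), a call lost when suffixed probe sets were left out.

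With MG132, 3 of the 20 rose and 11 fell in wild-type cells, and 5 rose and 9 fell in CHOP-/- cells; with median centring these were 5 and 7, and 9 and 7. The medians were -0.25 in wild-type and -0.11 in CHOP-/- cells. They were -0.19 and -0.03 with quantile normalization, and -0.05 and 0.03 with median centring. Of all tested genes 27.2% rose and 36.9% fell in wild-type cells, and 25.7% rose and 36.7% fell in CHOP-/- cells. Kat2b fell in both genotypes, with -1.43 in wild-type and -1.06 in CHOP-/- cells, and Ncoa3 rose in both, by 0.85 and 1.06. Nrip1, a corepressor that binds receptors with ligand, rose by 0.65 and 0.74. Nr2c2, the orphan receptor TR4, read 3676, 2962, 2828 and 2942 in untreated wild-type cells and 1396, 1425, 1411 and 1477 with MG132, against 2940.1, 3095, 2999 and 2879.7 and then 2597, 2618, 2741 and 2502 in CHOP-/- cells. Its response was higher in CHOP-/- cells by 0.92 (SE 0.09, limma adjusted p = 4.45e-07). Of the 20, 8 had a higher response in CHOP-/- cells and 0 a lower one by limma (7 and 1 with median centring), where 14.2% of all tested genes were higher and 14.1% lower. This split depends on the probe set rule. With the mean of all probe sets of a gene, Ncoa2 (0.36) and Rxra (0.11) lost their calls and Kat2b turned (-0.22) without a call.

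Genes known to respond to retinoic acid, taken from other cell types, were 7 higher and 4 lower of 14 tested in untreated CHOP-/- cells, with a median of 0.94. For all tested genes the shares were 28.6% higher and 26.9% lower. Plat, the tissue plasminogen activator, averaged 706 ± 21.6 in wild-type and 2383 ± 36.0 in CHOP-/- cells (SD, n = 4 each), a difference of 1.73 (SE 0.06). Col4a1, a basement membrane collagen, was higher by 1.68 (SE 0.08) and Hoxa5, a homeobox gene, by 1.46 (SE 0.12). Rarres1, named for its response to a synthetic retinoid, read 1124, 927, 924 and 541 in untreated wild-type and 9.02, 3.42, 10.5 and 11.7 in untreated CHOP-/- cells, a difference of -5.15 (SE 0.28), or -6.57 with 1 and -3.66 with 64 added. Meis2, a homeobox cofactor, differed by -2.07 (SE 0.11), whereas its relative Meis1, named here after its values were seen, was higher by 2.71 (SE 0.26). Rarres1 passed the filter on dim probe sets through the wild-type groups alone, and Meis1 through the CHOP-/- groups alone.

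With MG132, 4 of these 14 rose and 3 fell in wild-type cells, and 2 rose and 6 fell in CHOP-/- cells, or 4 and 4 with median centring. The medians of -0.07 and -0.03 became 0.14 and 0.11 with it. Among all tested genes 27.2% rose and 36.9% fell in wild-type cells, and 25.7% rose and 36.7% fell in CHOP-/- cells. Gprc5a, a retinoic acid-induced receptor, rose by 0.45 (SE 0.10) in wild-type and fell by 0.49 in CHOP-/- cells, and the responses differed by -0.94 (SE 0.14, limma adjusted p = 6.31e-05). Hoxa5 rose by 0.56 in wild-type cells and fell by 0.40 in CHOP-/- cells, the latter call being lost with quantile normalization or median centring, and the responses differed by -0.96 (SE 0.17). Bhlhe40, a circadian and hypoxia-related repressor, rose in both, by 0.37 and 0.69. Plat fell by 1.07 in CHOP-/- cells, and its change in wild-type cells was -0.66 from the brightest probe set and 0.23 from the mean of all its probe sets. Over the 3 lists the MG132 responses differed between the genotypes for 19 of 46 genes, 11 higher and 8 lower in CHOP-/- cells, where 28.3% of all tested genes differed, 1622 higher and 1616 lower, or 1251 and 2018 with median centring. With the mean of all probe sets of a gene, 5 of the 46 were higher and 8 lower.

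**Figure D4:**
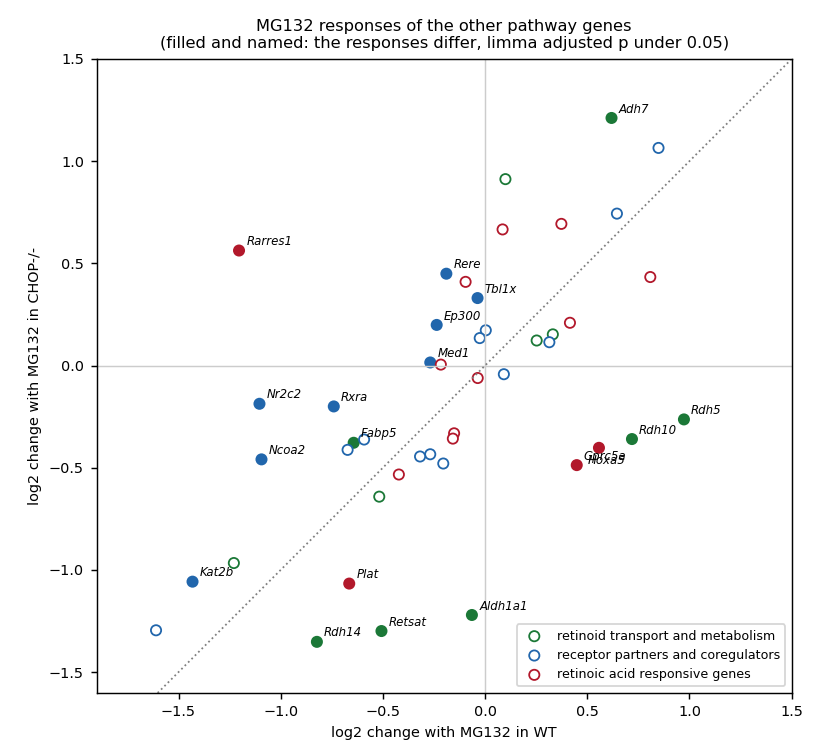
Log2 change with MG132 in wild-type (x axis) and CHOP-/- cells (y axis) for the 46 tested genes, coloured by list, with filled and named points where the responses differed by limma at an adjusted p under 0.05 and a dotted line of equal change. Rdh10, Gprc5a and Hoxa5 lie at the right below 0, Nr2c2, Ncoa2 and Rxra lie at the left above the line, and Rarres1 lies at the upper left.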

How the data were processed

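The 16 arrays are RNA of mouse embryonic fibroblasts, 4 per group. Per the labels' protocols, RNA was extracted with Trizol and an RNeasy kit and labelled with biotin by an Affymetrix 3' IVT kit. Values were made with MAS5, per the submitters' processing notes, whose version and settings the sources used here leave out. The values as deposited are signal intensities on a linear scale, 1 per probe set and array, and after trimming 2% at each end every array had a mean of 1000, so the authors had scaled the arrays. Of 45101 probe sets, 34945 named 1 gene in the platform annotation, 932 several and 9160 none; 64 are controls.

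Signals were taken as log2(signal + 16) without further normalization. The probe set with the highest mean among those naming a gene alone stood for that gene, which was tested if above the array median on at least 4 arrays, which left 11443 genes. limma 3.58.1 in R 4.3.3 was fitted with 1 coefficient per group (12 residual and 7.67 prior degrees of freedom, mean-variance trend), two-sided, with Benjamini-Hochberg adjustment over all tested genes and a threshold of 0.05, and was tested on simulated data. SEs of the 7 genes are from the arrays of the groups compared; those of other genes are from limma. The number of arrays limits the precision. Members, lists and tests were chosen with earlier results of these data known. Named pathway genes are Rxra, Rxrb, Rdh10, Dhrs3 and, for each list and comparison, up to 4 with the smallest adjusted p; Aldh1a2 did not pass the filter, and some listed genes are not reported here. Alternatives were other added constants (1 and 64), filters, scalings, probe set rules, a replicate block, fits of the compared groups alone and leaving out each array.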

Additional observations from a re-analysis of the deposited data

Results flagged for a closer look

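Some arrays stood apart from the other 3 of their group, by the share of the group's range that lay between them and the nearest other array. Of 132 groups of 4 arrays checked, 11 passed the 95% critical value of Dixon's test, and chance passes about 1 in 20. Among the 7 genes these were Crabp2 in untreated wild-type replicate 3 (0.881, at 5408 against 4869 to 4930.3), Rara in untreated wild-type replicate 3 (0.88, at 176 against 198 to 201) and in untreated CHOP-/- replicate 2 (0.91, at 209.6 against 261 to 267), the second Rarg probe set in untreated CHOP-/- replicate 2 (0.864, at 576 against 776 to 814) and Cyp26b1 in untreated wild-type replicate 1 (0.933, at 955 against 564 to 584). Among other pathway genes they were Aldh1a1 in untreated CHOP-/- replicate 2 (0.889), Col4a1 in untreated CHOP-/- replicate 4 (0.84), Fabp5 in treated CHOP-/- replicate 2 (0.914), Nr2f2 in untreated wild-type replicate 3 (0.861), Rdh14 in untreated CHOP-/- replicate 4 (0.864) and Rxra in untreated wild-type replicate 1 (0.863).

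The MG132 response differed between the genotypes for 15 named pathway genes by limma at an adjusted p under 0.05, given as the CHOP-/- minus the wild-type log2 response. It was higher in CHOP-/- cells for Adh7 (0.59), Fabp5 (0.27), Kat2b (0.37), Ncoa2 (0.63), Nr2c2 (0.92), Rarres1 (1.77), Rxra (0.54) and Tbl1x (0.37). It was lower for Aldh1a1 (-1.16), Gprc5a (-0.94), Hoxa5 (-0.96), Plat (-0.40), Rdh10 (-1.08), Rdh14 (-0.53) and Retsat (-0.79). With the mean of all probe sets of a gene the call was lost for Ncoa2 (0.36, limma adjusted p = 0.0562), Fabp5 (0.09) and Rxra (0.11). The sign turned without a call for Kat2b (-0.22) and Rdh14 (0.061) under that rule. Without suffixed probe sets Fabp5 turned (-0.077) and Kat2b lost its call (0.20, limma adjusted p = 0.695). Rarres1 and Aldh1a1 have 1 genotype near the lowest signals, and the Aldh1a1 difference was -1.06 (adjusted p = 0.322) with 1 added to the signals.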

How the results depend on the processing

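For the 7 genes, 0 differences changed sign past the spread and 20 of the values under other settings moved by more than it, mostly with another added constant (Rarb, Cyp26b1, Crabp1) or with median centring of the MG132 differences. All 206 counts of called genes under other settings, each a total of both directions, stayed within 1.5 times the reported ones. Counts of 1 direction moved further: pathway genes higher with MG132 in CHOP-/- cells went from 9 to 17 with median centring. Leaving out each array in turn gave 27 to 33 pathway genes called between the untreated genotypes, 30 to 34 for MG132 in wild-type, 29 to 32 for MG132 in CHOP-/- cells and 19 to 21 for the difference between both responses. Same-numbered arrays of different groups deviated together at -0.068 to 0.16, so the numbers were not taken to pair the plates; with the replicate block the pathway counts were 32, 33, 31 and 19, against 31, 31, 31 and 19, those of all genes 6499, 7444, 7319 and 3485, against 6343, 7329, 7145 and 3238, and Nr2f2 passed in wild-type cells at -0.20. Sign changes of named pathway genes with no call in either setting were not counted. With a call in the reported or the other setting, 7 values changed sign. With the mean of all probe sets these were Kat2b (-0.22) and Rdh14 (0.061) for the difference between responses, Nr2c2 for MG132 in CHOP-/- cells (0.17), and Plat (0.23) and Tbl1x (0.16) for MG132 in wild-type cells; without suffixed probe sets Fabp5 for the difference between responses (-0.077); and with median centring Tbl1x for MG132 in wild-type cells (0.17). With the mean of all probe sets the responses that differed were 5 higher and 8 lower of 46. A further 22 values lost and 16 gained the threshold; the cause was not tested. Without detection calls, the lowest signals give no sure fold.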
